A study of Rattus norvegicus with 10 samples.

Results

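The keratins expected of a simple glandular epithelium, Krt7, Krt8, Krt18, Krt19 and Krt20, were followed through the silencing of FoxE1 in PCCl3 cells, a single established line of rat thyroid follicular cells. Members were chosen by gene name: every non-control probe whose transcript accession belongs to 1 of these 5 genes was taken, which gave 5 probes, 1 per gene, of 30367 probes and 15316 named genes on the array. siFoxE1 PCCl3 had been transfected with 25 nM of a pool of siRNAs against FoxE1, siScramble PCCl3 with 25 nM of a non-targeting siRNA pool, and wt PCCl3 were left untreated, without transfection reagent. All were grown with donor calf serum and a hormone mixture that includes TSH, and RNA was taken 48 h after transfection. siFoxE1 RNA was set against siScramble RNA and, separately, against wt RNA, and in each comparison 4 Agilent arrays held 1 silencing experiment each, with siFoxE1 in Cy5 and the other condition in Cy3. 1 more array held pooled RNA of the same experiments with the dyes exchanged. Both comparisons used the same siFoxE1 extracts, so n is 4 throughout and the comparisons share those extracts. A silencing experiment with its number, 1 to 4, is called a culture here.

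Keratins build the intermediate filaments of epithelial cells. A filament needs an acidic type I and a basic type II keratin in equal amounts, so that Krt8 or Krt7 (type II) pairs with Krt18, Krt19 or Krt20 (type I). Krt8 and Krt18 are the first pair formed in the embryo and the common pair of simple epithelia, thyroid follicular cells included, while Krt7 and Krt19 mark many ductal and glandular cells and Krt20 is best known from the intestinal lining, the urothelium and Merkel cells. In the rat genome table used here Krt7 and Krt8 lie on chromosome 7 within the type II cluster, Krt18 is the protein-coding gene next to Krt8 and the type I gene of that cluster, and Krt19 and Krt20 lie in the type I cluster on chromosome 10. The question addressed was which of these keratins the cells express, and how each stood after FoxE1, a forkhead transcription factor of the thyroid, had been silenced.

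The silenced gene served as the check of the labels. Foxe1 RNA fell in siFoxE1 PCCl3 by 0.79 on the log2 scale against siScramble PCCl3 (1.73-fold, SE 0.0856, limma adjusted p = 0.0226) and by 0.86 against wt PCCl3 (1.81-fold, SE 0.0772, limma adjusted p = 0.0326), and it was lower in the siFoxE1 channel on all 10 arrays. The individual arrays alone gave -0.56 and -0.51, and the pools -1.03 and -1.21, against siScramble and wt in that order. At nearly the same size the calls were lost on processed signals (limma adjusted p = 0.25 and 0.176), with an offset of 10 (0.0848 and 0.065), with a robust trend (0.248 and 0.0743) and without culture 1 (0.0541 and 0.233). Leaving out a culture means here that its individual array was dropped, while the pool, which holds its RNA, stayed in. The call against wt was also lost without culture 4 (limma adjusted p = 0.23), and that against siScramble without a filter (0.0514) and on the first slide alone (-0.54, limma adjusted p = 0.079). The thyroid follicular markers Tg, Tshr, Slc5a5, Pax8, Nkx2-1, Foxe1 and Duox2 were well above background in all 20 channels of the 10 arrays. Of the other lists of markers, 1 of 4 C cell markers, 3 of 6 fibroblast markers, 1 of 3 endothelial and 1 of 5 leukocyte markers with a probe were above background in every channel, as were 0 of 3 basal epithelial markers, and the defining Chga, Dcn, Lum, Pecam1 and Itgam in none. Each array held 58717 spots, of which 56.8 to 60.3% in Cy5 and 60.6 to 68.2% in Cy3 were well above background. The siScramble arrays 3 and pool were on a second slide with its own scan, all other arrays on the first.

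Krt7 and Krt20 were the members that these probes detected. Krt7 was well above background in 40 of 40 spots over the 20 channels, with mean spot signals of 4880 to 7910 intensity units in Cy5 and 3690 to 7870 in Cy3. Krt20 was a dim probe that was still above background in all 20 channels, with 118 to 281 units in Cy5, where the 95th percentile of 308 negative control probes was 60 to 71.6, and 52 to 168 units in Cy3, where that percentile was 23.3 to 32. On these probes the cells therefore showed a type II keratin, Krt7, and a type I keratin, Krt20.

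Krt8, Krt18 and Krt19 were at or close to the level of the negative controls. In some channels each exceeded the 95th percentile of the negative controls of its array. Krt8 did so on siScramble array 3 (78.6 against 63.5 in Cy5, 32.3 against 23.3 in Cy3) and array 4 (74.4 against 67.8, 37.6 against 28.3). The Krt8 probe, printed 10 times per array, gave 55.2 to 78.6 units in Cy5 and 21.6 to 37.6 in Cy3 over a local background of 53.6 to 58.5 and 20 to 22.4. Of its 200 spots 16 were well above background, and at least 0.5 of its spots passed in 2 channels, both of siScramble PCCl3 (cultures 3 and 4, with 32.3 and 37.6 units). Krt18 passed in 1 of 40 spots, in the siFoxE1 pool set against siScramble, where its mean signal was 39.2 units. Krt19 passed in 0 of 40 spots. The label of thyroid keratins was thus borne out by signal for 2 of the 5 genes. For the other 3 the files give only that their probes were not well above background, which is a statement on these probes and sets no level, and none of the 3 passed the filter for testing. Each gene had 1 probe, so no second probe was there to compare. In the plot of raw signals, Krt7 and Krt20 stand clear of the grey band of the negative controls in both dyes, while the other 3 lie in or close to it.

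**Figure D1:**
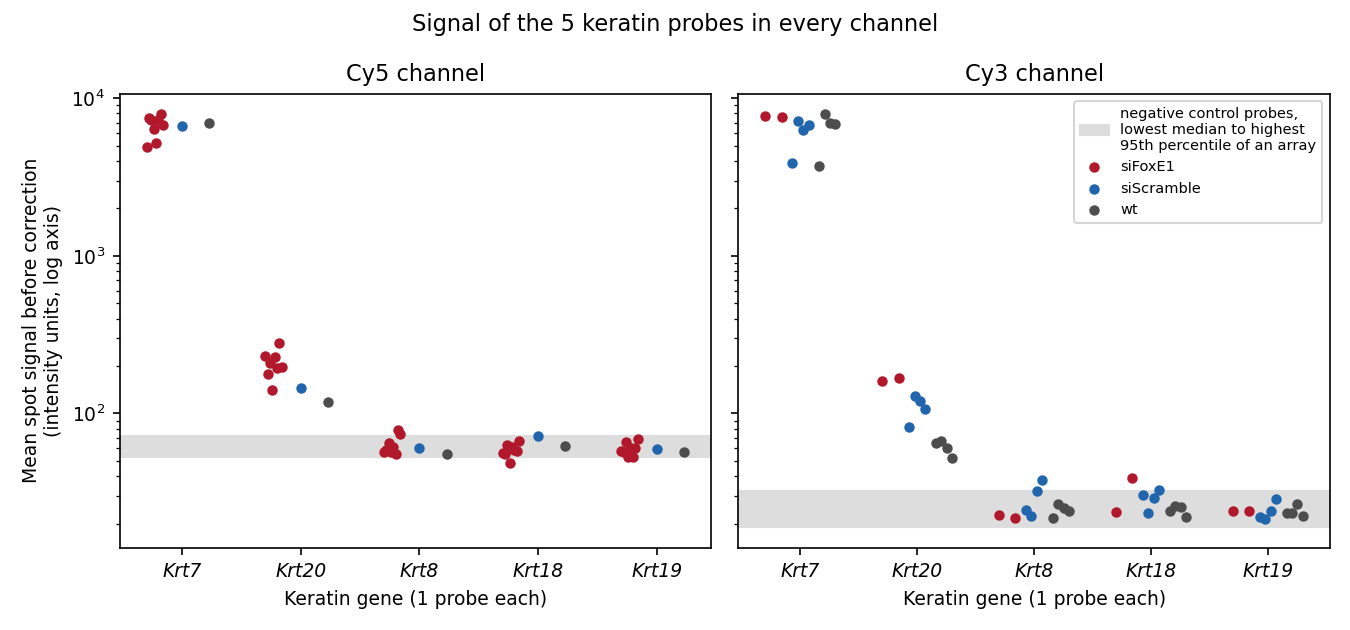
Mean spot signal before correction (log axis, intensity units) of the 5 keratin probes in the Cy5 channel and in the Cy3 channel, 1 point per channel, coloured by condition. The grey band spans the lowest median to the highest 95th percentile of the 308 negative control probes over the arrays, and only Krt7 and Krt20 lie wholly above it.

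The upstream sequences of the dim and the detected genes were set side by side, because the study links FoxE1 binding to a forkhead core, written AAACA in part of its text and ACAAA in another, that lies near an NF1/CTF core, TTGG. RefSeq promoter windows of build GRCr8, which is not the build of the array, were at hand for Krt20, Krt8 and Krt18. The 250 bases before each start site are given 5′ to 3′ on the gene's strand, for Krt20 at chr10:84890286-84890535 (minus strand), Krt8 at chr7:135010340-135010589 (minus strand) and Krt18 at chr7:135035918-135036167 (plus strand), with each AAACA and ACAAA match, on either strand, in capitals (TGTTT and TTTGT where they are read on the other strand).
Krt20: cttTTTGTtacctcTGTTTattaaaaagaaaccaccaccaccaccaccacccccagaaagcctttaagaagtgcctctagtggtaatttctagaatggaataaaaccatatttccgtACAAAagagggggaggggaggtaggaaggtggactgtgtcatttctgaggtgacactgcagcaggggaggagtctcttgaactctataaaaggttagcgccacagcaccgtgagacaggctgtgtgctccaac
Krt8: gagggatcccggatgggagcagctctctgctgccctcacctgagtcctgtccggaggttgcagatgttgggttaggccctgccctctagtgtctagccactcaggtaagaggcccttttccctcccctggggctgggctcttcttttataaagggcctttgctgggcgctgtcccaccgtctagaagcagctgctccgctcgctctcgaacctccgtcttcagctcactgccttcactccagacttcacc
Krt18: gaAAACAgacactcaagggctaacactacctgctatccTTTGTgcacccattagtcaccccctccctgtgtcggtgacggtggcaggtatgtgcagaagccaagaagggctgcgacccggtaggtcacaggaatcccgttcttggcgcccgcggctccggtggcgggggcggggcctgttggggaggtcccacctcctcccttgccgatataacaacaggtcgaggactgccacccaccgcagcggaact
The composite motif, TTGG followed after 5 to 30 bases by AAACA, searched on both strands, had no match in these 3 windows, and 6.36% of 33469 windows of this length in the same table had one. With ACAAA in its place, a form added after the other had been searched, there was again no match in the 3 windows, and 5.75% of all windows had one. The study itself searched a longer span, on both sides of the start site. The absence of a match here thus covers only a part of that span. Krt20 was among the regulated genes that the study searched, and the study does not list it among those with the composite motif. Krt8 and Krt18 were not among its regulated genes. AAACA by itself matched once in Krt20, on the other strand at 236 to 232 bases before the start, and once in Krt18, and it matched in 47.0% of all windows. ACAAA by itself matched in Krt20 once on each strand, at 133 to 129 bases before the start on the gene's own strand and at 247 to 243 on the other, and once in Krt18, on the other strand, and it matched in 43.6% of all windows. A TATAAA box on the gene's own strand, found in 8.06% of all windows, lay in the Krt20 window, with its first base 49 before the start, and in the Krt8 window, with its first base 104 before it. The Krt20 window was also the poorest in G and C of the 3, with 47.2%, against 60% for Krt8 and 62% for Krt18. Such matches are descriptions of letters and not of binding.

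Krt20 carried the larger difference of the members. Levels are log2 intensities after loess within arrays, with quantiles between arrays set on the mean log2 intensity of both dyes. The Krt20 level was 7.86, 7.46, 8.05 and 7.56 in siFoxE1 cultures 1 to 4, 6.98, 7.33, 7.48 and 7.24 in siScramble cultures, and 6.73, 6.64, 6.57 and 6.60 in wt cultures. The siFoxE1 and the wt cultures did not overlap, which held in the same direction for 3.5% of the probes tested, and the siScramble cultures also lay above all wt cultures, which held for 0.815% of the probes. The siFoxE1 and siScramble cultures overlapped narrowly, as siFoxE1 culture 2 (7.46) lay below siScramble culture 3 (7.48). The means were 7.73 ± 0.27 in siFoxE1, 7.26 ± 0.21 in siScramble and 6.63 ± 0.07 in wt PCCl3 (SD, n = 4), so that of the neighbours in this order siFoxE1 and siScramble overlapped and siScramble and wt did not. The siFoxE1 level of 1 culture differed by up to 0.42 between its 2 arrays. Since siFoxE1 was in Cy5 and both references in Cy3 on the individual arrays, these siFoxE1 levels also carry any dye preference of the probe. The fits below give that preference a term, which rests on the 1 array with exchanged dyes, the pool. Anything else that sets the pool apart cannot be told from the dye there.

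Within arrays, siFoxE1 over wt was above 0 for Krt20 on all 5 arrays. The log2 ratios were 1.15, 0.73, 1.33 and 0.84 in cultures 1 to 4 (mean 1.01 ± 0.28, SD, n = 4) and 0.75 in the pool with exchanged dyes. In such bulk RNA, more cells with Krt20 RNA and more of it per cell cannot be told apart. The fit with a dye term gave a log2 fold change of 0.88 (1.84-fold, SE 0.122, limma adjusted p = 0.116 over 18526 probes). Against siScramble the ratios were 0.89, 0.15, 0.85 and 0.59 (mean 0.62 ± 0.34, SD, n = 4) and 0.58 in the pool, again above 0 on all 5 arrays, with culture 2 close to 0. The fit gave 0.60 (1.52-fold, SE 0.135, limma adjusted p = 0.196 over 18139 probes). Ratios above 0 on all 5 arrays were found for 9.28% of the probes against wt and for 7.79% against siScramble, and on all 10 arrays for 4.39%.

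At the threshold used here, an adjusted p under 0.05, 0 of the 2 tested members were called in either comparison, where 0.121% of the probes tested against siScramble and 0.0486% of those tested against wt were called. Both members had an unadjusted p under 0.05 with higher values in both comparisons, as 6.43% of the probes had against siScramble and 8.02% against wt. The call for Krt20 depended on how the pooled arrays and the dyes were treated. Against wt it passed with culture number as a block over all 10 arrays (replicate block, 0.88, limma adjusted p = 0.0111) and without a dye term (0.96, limma adjusted p = 0.00759). It also passed on the 4 individual arrays alone (1.01, limma adjusted p = 0.0326) and with the individual array of culture 3 left out (0.83, limma adjusted p = 0.0304). Against siScramble it passed without a dye term (0.61, limma adjusted p = 0.0197) and on the individual arrays alone (0.62, limma adjusted p = 0.0432), but not with the replicate block (limma adjusted p = 0.128). Of the 18526 probes tested against wt, 603 were called with the block, 849 without a dye term, 225 on the individual arrays and 65 without culture 3. Of the 18139 tested against siScramble, 691 were called without a dye term and 524 on the individual arrays. Krt20 is 1 of the genes that the study listed as regulated in both comparisons, at a stricter p than the threshold used here. The fits used here did not reproduce that listing. On the authors' own normalized ratios they gave 0.9 against wt (limma adjusted p = 0.107) and 0.59 against siScramble (limma adjusted p = 0.199). As the study's choice was made on these arrays, its list is no independent evidence of the direction of Krt20.

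The size for this dim probe also depended on the background correction. With the scanner software's own processed signals, which are background-subtracted without an offset, the log2 fold change was 1.69 against wt and 0.97 against siScramble, and with a normexp offset of 10 in place of 50 it was 1.24 and 0.79. The raw spots show the same order: on the wt arrays 1 to 4 Krt20 had 233, 178, 208 and 141 units in the siFoxE1 channel (Cy5, local background 55.5 to 57.5) against 65.2, 66.5, 60.5 and 52 units in the wt channel (Cy3, local background 21 to 22.5). In the wt pool, with the dyes exchanged, siFoxE1 had 160 units in Cy3 and wt 118 in Cy5.

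**Figure D2:**
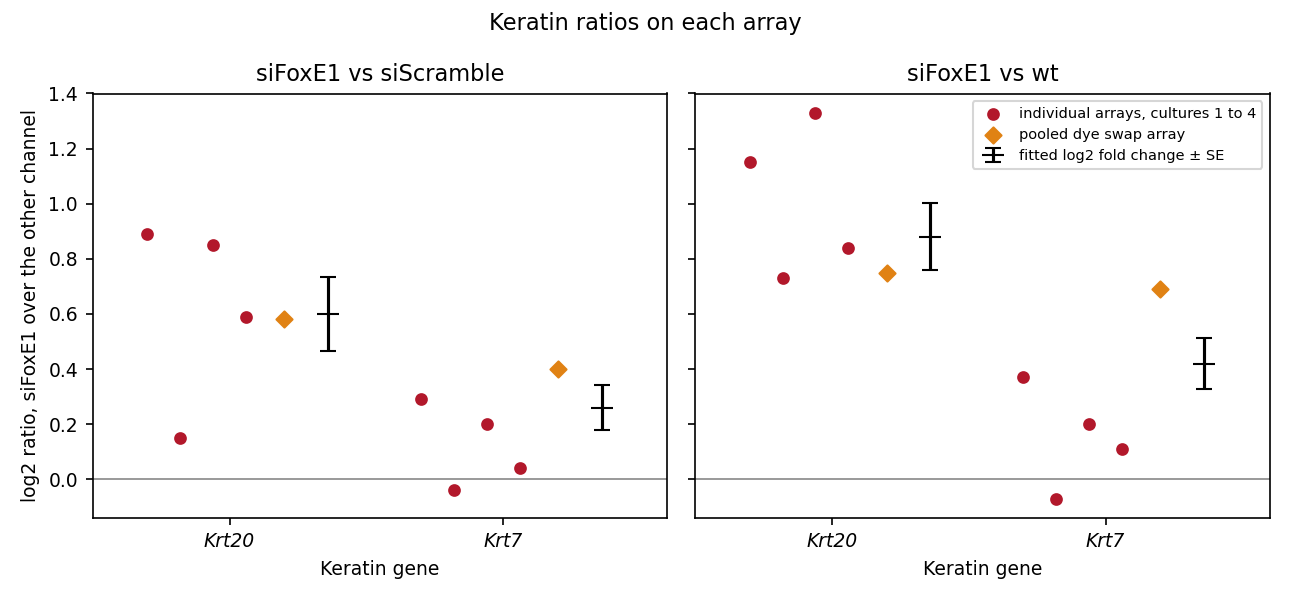
log2 ratio of siFoxE1 over the other channel for Krt20 and Krt7 on the 5 arrays of each comparison, with the fitted log2 fold change ± SE. Krt20 lies above 0 on all 10 arrays (0.15 to 1.33), whereas the Krt7 individual arrays lie between -0.07 and 0.37 and its pools at 0.40 and 0.69.

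Krt7, the partner of the type I keratins in many glandular cells, differed less between conditions than between cultures. Its log2 level was 12.40, 12.57, 12.93 and 12.95 in siFoxE1 cultures 1 to 4, 12.19, 12.59, 12.81 and 12.94 in siScramble cultures, and 12.02, 12.70, 12.72 and 12.88 in wt cultures. All 3 conditions overlapped, with means of 12.71 ± 0.27 in siFoxE1, 12.63 ± 0.33 in siScramble and 12.58 ± 0.38 in wt PCCl3 (SD, n = 4), and no neighbours in this order differed beyond their spread. Culture 1 was the lowest in every condition. Among the wt cultures Krt7 spanned 0.86 log2 units, or 1.82-fold, where the median span of the probes tested against wt was 0.36.

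The Krt7 ratios of the individual arrays and of the pools differed. Against wt the log2 ratios of cultures 1 to 4 were 0.37, -0.07, 0.20 and 0.11 (mean 0.15 ± 0.18, SD, n = 4), and the pool with exchanged dyes gave 0.69. Against siScramble they were 0.29, -0.04, 0.20 and 0.04 (mean 0.12 ± 0.15, SD, n = 4), with 0.40 in the pool. Culture 2 was below 0 in both. Because the dye term gives the pool the same weight as the 4 individual arrays together, the fits lay midway, at 0.42 against wt (1.34-fold, SE 0.0937, limma adjusted p = 0.233) and 0.26 against siScramble (1.20-fold, SE 0.0818, limma adjusted p = 0.271). On the individual arrays alone they were 0.15 and 0.12 (limma adjusted p = 0.267 and 0.334). With the replicate block Krt7 passed against wt (0.42, limma adjusted p = 0.0331) and missed the threshold against siScramble (limma adjusted p = 0.315).

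**Figure D3:**
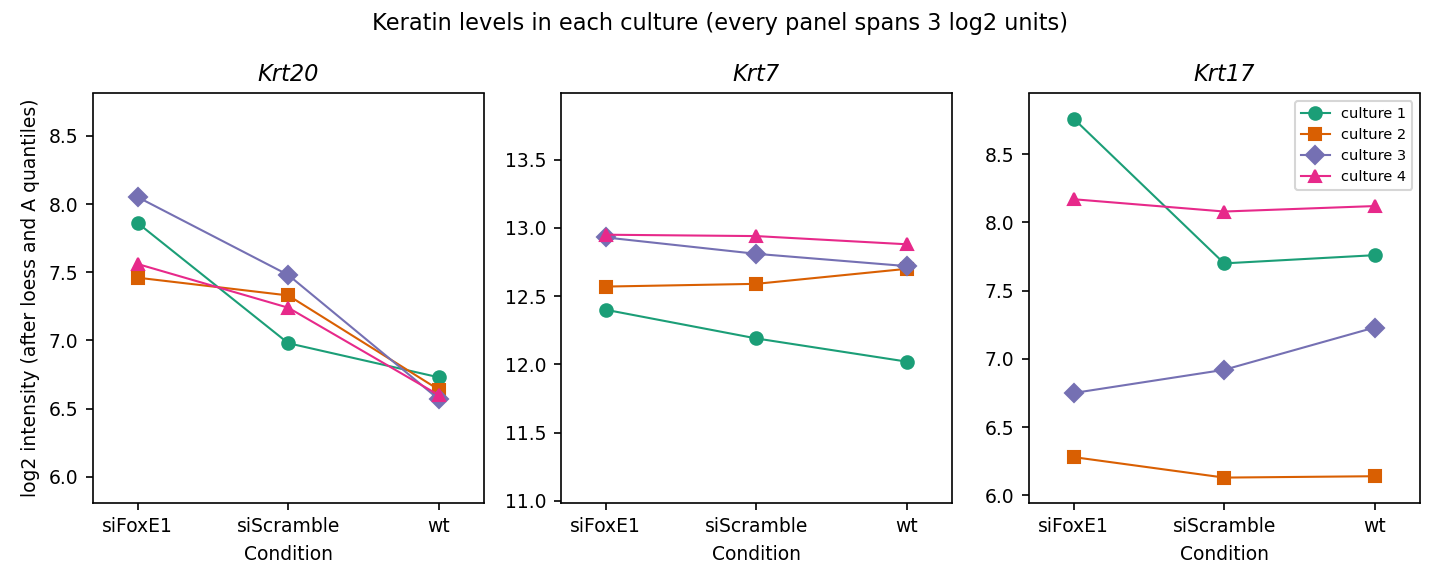
log2 intensity per culture in siFoxE1, siScramble and wt PCCl3 for Krt20, Krt7 and Krt17, with 1 line per culture; each panel spans 3 log2 units, and levels are not comparable between probes. Krt20 cultures lie at 7.46 to 8.05 in siFoxE1 and 6.57 to 6.73 in wt, while Krt7 and Krt17 differ mainly between cultures; in culture 2 Krt17 was not well above background.

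No array held siScramble and wt together, so they were compared through the shared siFoxE1 extracts, as the difference of both comparisons in 1 fit of all 10 arrays. Krt20 gave 0.28 for siScramble over wt (1.21-fold, SE 0.205, limma adjusted p = 1) and Krt7 gave 0.16 (1.12-fold, SE 0.126, limma adjusted p = 1). In this comparison 1 probe was called, or 0.00562% of 17804. The same difference is the test of whether siFoxE1 stood differently against wt than against siScramble, and that was not shown for either keratin. The fit without the block gave each comparison its own dye term. With 1 dye term shared by both comparisons Krt20 gave 0.35 (limma adjusted p = 0.988) and Krt7 0.08. Separate dye terms were preferred, since each coefficient then equals that of the separate fit, after both results had been seen.

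Of the 10 arrays, 2 stood out for Krt8. The siScramble array of culture 3, on the second slide, had Krt8 signals of 78.6 units in siFoxE1 (Cy5) and 32.3 in siScramble (Cy3), and that of culture 4, on the first slide, 74.4 and 37.6, while the other 8 arrays stayed at 65.2 or less in Cy5 and 26.6 or less in Cy3. The array of culture 4 was not high for Krt8 alone. Krt19 had its highest signals there, 68.5 in Cy5 and 28.5 in Cy3, and Krt18 had 67 and 32.8. On the array of culture 3 Krt19 had 60.5 and 24, and Krt18 57.8 and 29.2. For Krt20 the fit against siScramble gave 0.72 with the slide as a term (limma adjusted p = 0.0962) and 0.54 on the first slide alone (limma adjusted p = 0.121). For Krt7 it gave 0.30 and 0.10 (limma adjusted p = 0.218 and 0.619), and the first slide alone held 3 arrays of this comparison with siFoxE1 in Cy5.

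The rest of the keratin family was mostly dim as well. Of 46 other keratins listed, 35 had a probe, of which 3 (Krt4, Krt33b and Krt81) were above background in all 20 channels, 25 in some and 7 in none. Of these, 13 were tested against siScramble and 14 against wt, and 0 were called in either direction, with a median log2 fold change of 0.02 against siScramble and 0.03 against wt beside 0 over all genes tested. Over all genes, 6 were called higher and 8 lower of 9882 against siScramble, and 0 higher and 3 lower of 10043 against wt. Outside the list, 5 more keratin genes had a probe, of which 1, Krt87, was above background in all 20 channels and 4 in some. Within the list, the basal keratins Krt5 and Krt14, a pair of stratified epithelia, were above background in 19 and 16 of 20 channels. Krt14 had the smallest p of the group, with a log2 fold change of 0.38 against wt (SE 0.114, limma adjusted p = 0.238) and 0.32 against siScramble (SE 0.105, limma adjusted p = 0.285), and it was above background in 9 of 10 siFoxE1, 5 of 5 siScramble and 2 of 5 wt channels. Its size moved with the background correction, to 1.49 against wt and 0.78 against siScramble on processed signals and to 0.71 and 0.52 with an offset of 10. Krt14 passed against wt without a dye term (limma adjusted p = 0.0494) and with 1 shared dye term (limma adjusted p = 0.0376). Those settings without a dye term and with a shared one called 849 and 1652 of 18526 probes. Krt76, of the oral mucosa, gave 0.26 and 0.12, and Krt12, of the cornea, 0.17 and 0.14, against wt and against siScramble in that order.

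Krt17, a keratin of basal and injured epithelia, was singled out after its values had been seen, for its spread between cultures. In cultures 1, 3 and 4 its log2 level was 8.76, 6.75 and 8.17 in siFoxE1, 7.70, 6.92 and 8.08 in siScramble, and 7.76, 7.23 and 8.12 in wt PCCl3. In culture 2 the probe was not well above background in any condition, so no level or ratio is given there. The siFoxE1 over wt ratios of cultures 1, 3 and 4 were 0.94, -0.51 and 0.04, with 0.26 in the pool, and over siScramble 1.21, -0.19 and 0.14, with 0.17 in the pool. Cultures 1 and 3 thus stood on opposite sides of 0 in both comparisons, and the fits on all 5 arrays were 0.20 against wt and 0.25 against siScramble (limma adjusted p = 0.675 and 0.695), or 0.43 against siScramble on processed signals and 0.51 on the first slide alone.

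The genes that tie keratin filaments to the cell surface were described from a list of 21 anchors, of which 11 had a probe and 8 were tested in both comparisons. None was called in the fits of each comparison (limma, over all probes), while 7 of 8 lay above 0 in each comparison, with medians of 0.24 against siScramble and 0.22 against wt. Over all genes tested, 4982 of 9882 lay above 0 against siScramble and 4966 of 10043 against wt. Called were 6 higher and 8 lower of these 9882 genes, and 0 higher and 3 lower of the 10043. An unadjusted p under 0.05 was reached by 5 of the 8 with higher and 1 with lower values against siScramble, where 884 genes of 9882 reached it with higher and 756 with lower values, and by 4 with higher values against wt, where 1092 genes of 10043 did. Itgb4, the integrin subunit through which plectin links keratins to hemidesmosomes, had log2 ratios over wt of 1.08, 0.28, 0.82 and 0.67 and 1.20 in the pool, and over siScramble of 0.35, 0.12, 0.53 and 0.36 and 0.86 in the pool. The fits were 0.95 (1.94-fold, SE 0.142, limma adjusted p = 0.125) against wt and 0.60 (1.52-fold, SE 0.0854, limma adjusted p = 0.0785) against siScramble. Jup, which codes for plakoglobin of desmosomes and adherens junctions, gave 0.61 (SE 0.112, limma adjusted p = 0.22) and 0.39 (SE 0.0845, limma adjusted p = 0.193). Evpl, or envoplakin, a linker of the plakin family, gave 0.70 (SE 0.193, limma adjusted p = 0.233) and 0.48 (SE 0.163, limma adjusted p = 0.29). The plakophilin Pkp2, which brings keratins to desmosomes, gave 0.11 and 0.01, and plectin at 0.03 and -0.04 on 1 probe and 0.29 and 0.19 on the other. With the replicate block over all 10 arrays, Itgb4, Jup and Evpl passed against wt, at the same fold changes (limma adjusted p = 0.00668, 0.0132 and 0.0478). The block called 603 of 18526 probes against wt, where the fit as reported called 9. Without a dye term all 3 passed against siScramble (limma adjusted p = 0.0404, 0.0481 and 0.0464), and Itgb4 also with the slide as a term (0.70, limma adjusted p = 0.044). Those settings called 691 and 65 of 18139 probes against siScramble, where the fit as reported called 22. Without culture 2 Itgb4 passed in both comparisons (1.03 against wt and 0.64 against siScramble, limma adjusted p = 0.0427 and 0.0464), where 36 probes were called against wt and 35 against siScramble. As for Krt20, culture 2 had the smallest Itgb4 and Jup ratios of the 4 in both comparisons.

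**Figure D4:**
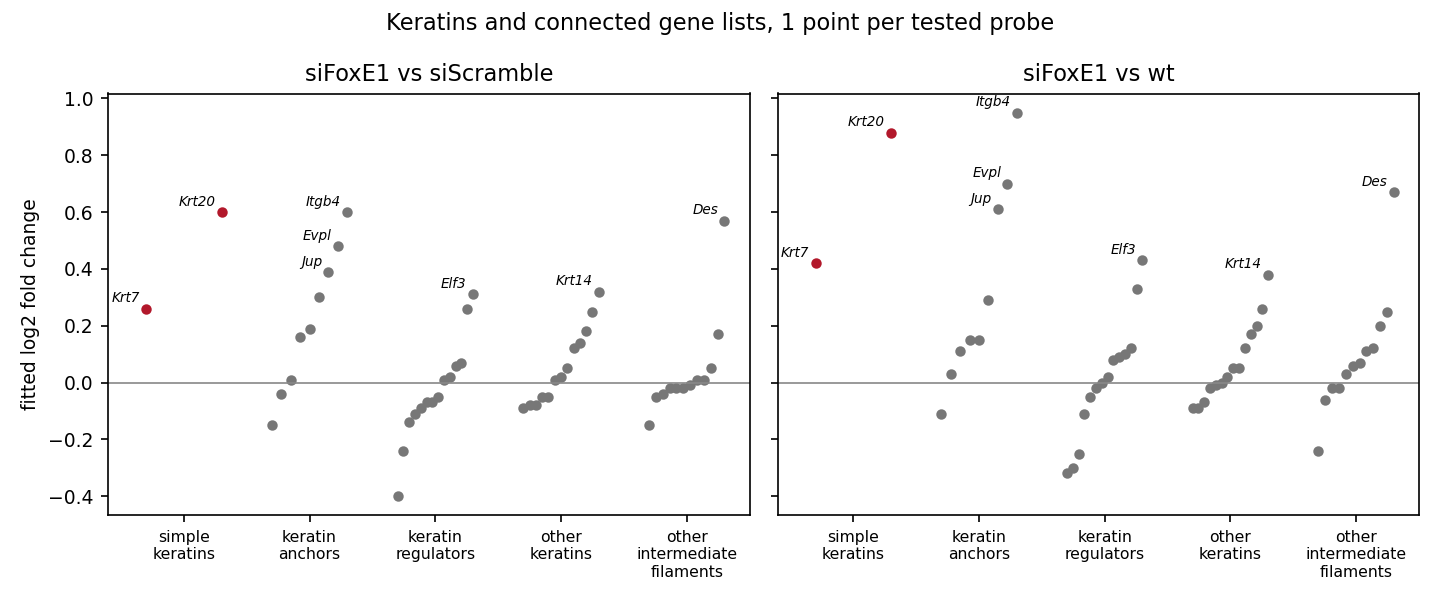
Fitted log2 fold change of every tested probe of the simple keratins and of 4 connected lists, siFoxE1 vs siScramble on the left and siFoxE1 vs wt on the right, with some genes named. Of the anchors 7 of 8 genes lie above 0 on each side, the other 3 lists have medians of -0.02 to 0.07, and no point passed an adjusted p of 0.05 in these fits.

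Regulators and modifiers of keratins gave no call in the fits of each comparison either. Over all genes 6 higher and 8 lower of 9882 were called against siScramble, and 0 higher and 3 lower of 10043 against wt. With calls that rare, 0 in a short list says little on its genes. Of 26 listed genes 21 had a probe, and 12 were tested against siScramble and 11 against wt, with a median of -0.02 in both. Elf3, an epithelial ETS factor, gave 0.43 against wt (SE 0.0785, limma adjusted p = 0.22) and 0.31 against siScramble (SE 0.109, limma adjusted p = 0.302). Against wt it passed with the replicate block (limma adjusted p = 0.0445), without a dye term (limma adjusted p = 0.0224) and on the individual arrays alone (limma adjusted p = 0.0487). Those settings called 603, 849 and 225 of 18526 probes. Tgm2, a transglutaminase that can cross-link keratins, gave 0.33 and 0.26 (limma adjusted p = 0.233 and 0.271), and Akap13, an A-kinase anchoring protein, gave -0.25 and -0.11 (limma adjusted p = 0.233 and 0.556). Among 16 other intermediate filament genes, 14 had a probe, 9 were tested and 0 were called, with medians of 0.07 against wt and -0.02 against siScramble. Des, or desmin, known from muscle, gave 0.67 (SE 0.127, limma adjusted p = 0.23) and 0.57 (SE 0.123, limma adjusted p = 0.194). It passed against wt with the replicate block (limma adjusted p = 0.025), and without a dye term in both comparisons (limma adjusted p = 0.0224 against wt and 0.026 against siScramble). Without a dye term 691 of 18139 probes were called against siScramble. Nefh, a neurofilament subunit, gave 0.25 and -0.02. The 2 probes of Lmna, which codes for the nuclear lamins A and C, gave 0.20 and 0.12 against wt, and 0.17 and 0.05 against siScramble. Vim, the vimentin of mesenchymal and many cultured cells, gave 0.07 and -0.04.

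Krt20 and Krt7 did not follow each other closely over the arrays. Across the 10 arrays, which share siFoxE1 extracts by culture number and differ in dye, the log2 ratios of both probes had a Pearson r of 0.317. Among 9740 named genes tested in both comparisons, those whose ratios correlated most with Krt20 were Rhebl1 (r = 0.931), Rida (r = 0.92) and Mterf2 (r = 0.907). For Krt7 they were Blvrb (r = 0.965), Zdhhc4 (r = 0.945) and Dnajc8 (r = 0.943). Pearson r compares neither the size nor the sign of the ratios. Dnajc8 was below 0 on every individual array, at -0.43 to -0.12, with 0.47 in the wt pool and 0.16 in the siScramble pool. Blvrb lay at -0.15 to 0.03 on the individual arrays, with 0.19 and 0.05 in these pools. Zdhhc4 was below 0 only in culture 2, as Krt7 was. These are descriptions over 10 points of which the pools carry the exchanged dyes.

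**Figure D5:**
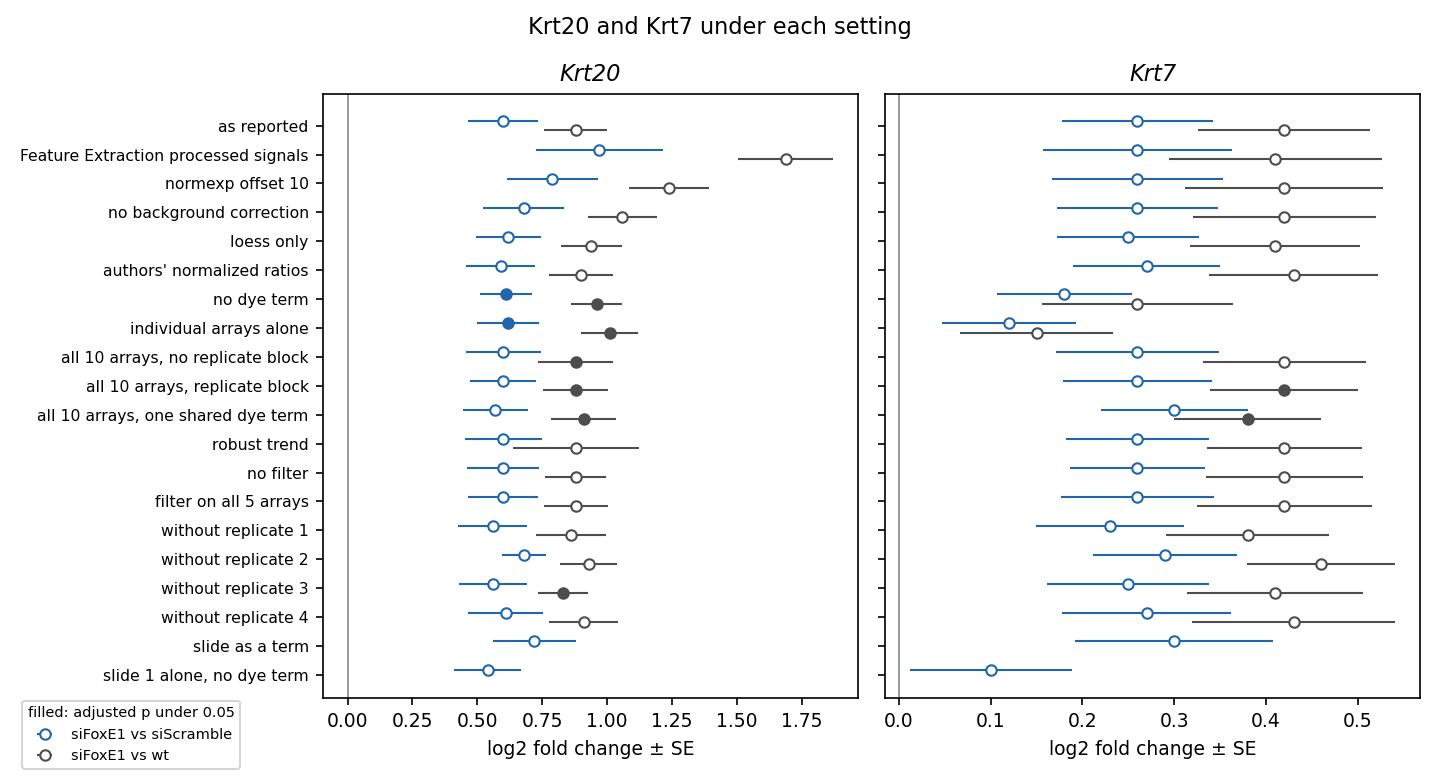
Fitted log2 fold change ± SE of Krt20 and Krt7 under each setting tried, with filled points where the adjusted p was under 0.05; the axes of both panels differ in range. All values lie above 0, Krt20 between 0.54 and 1.69 and Krt7 between 0.10 and 0.46.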

How the data were processed

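The data are 10 Agilent 2-colour rat arrays. Feature Extraction 10.7.3.1 read the authors' scans, and the deposited files hold spot and background intensity per dye, processed signals and a log10 ratio of red over green. The authors' own table of log2 ratios (loess and quantiles, limma 3.2.3 per the submitters' notes) was used as an alternative. For its pooled arrays, r = -0.704 and -0.657 with red over green show that siFoxE1 is already on top there.

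Here, normexp (offset 50) was applied to median spot signals, then loess inside each array and quantile normalization of all arrays, and spots of a probe were averaged. Outlier spots, 1.25 to 1.6% per array, and control spots were left out, and no spot was saturated. limma 3.58.1 in R 4.3.3 fitted the 5 arrays of a comparison with a term for dye (3 residual degrees of freedom). Adjusted p is Benjamini-Hochberg's, over all tested probes. Testing required at least 0.5 of a probe's spots well above background on at least 3 of 5 arrays in 1 channel. Levels are per-channel log2 intensities, for which the quantiles between arrays were set on the mean log2 intensity of both dyes and not on the ratios. Accessions named 17998 of the 30367 probes, 185 were named through tables of the study, and 12184 had no name. In counts and medians a listed gene stands for its brightest tested probe.

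The members and gene lists were chosen with earlier results of these data known. Named were all members, Foxe1, up to 3 genes per list with the smallest p against wt, and the 3 genes with the highest Pearson r to each tested member. Krt17, Krt5, Krt87, Pkp2, plectin and Vim were added after their values were seen. Culture numbers pair the arrays by design, since both arrays of a number share an siFoxE1 extract; deviations of same-numbered arrays correlated across probes at r = 0.616, 0.758, 0.764 and 0.406, those of other pairs at -0.65 to 0.505. The fits were also run on simulated arrays with independent residuals. These hold neither the pooling of RNA nor the shared extracts, so they cannot show how the fits behave with them. For plots, matplotlib 3.10.9 was run under Python 3.11.15 with numpy 2.4.6 and pandas 2.3.3. Probe and protein sequences were not used here, and probes are given no genome position. 1 listed marker gene is not reported here.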

Additional observations from a re-analysis of the deposited data

How the results depend on the processing

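Of the keratins, Krt7 and Krt20 kept a log2 fold change above 0 in both siFoxE1 comparisons under each of 19 alternatives against siScramble and 17 against wt. The number of member probes called, 0 as reported, was 1 in both comparisons without a dye term and on the individual arrays alone, and against wt it was 1 with all 10 arrays in 1 fit without the block, 2 with the replicate block and 2 with 1 shared dye term. Krt20 against siScramble passed without a dye term (0.61) and on the individual arrays alone (0.62). Krt20 against wt passed in the same settings (0.96 and 1.01), with all 10 arrays without the block (0.88, limma adjusted p = 0.0355), with the replicate block (0.88) and with 1 shared dye term (0.91, limma adjusted p = 0.005). Krt7 against wt passed with the replicate block (0.42) and with 1 shared dye term (0.38, limma adjusted p = 0.0237). Leaving out 1 replicate in turn dropped its individual array and kept the pool, which holds its RNA. Against wt this gave 0 to 1 called members, the 1 being Krt20 without replicate 3 (limma adjusted p = 0.0304), with Krt20 at 0.83 to 0.93 and Krt7 at 0.38 to 0.46. Against siScramble it gave 0 called members, with Krt20 at 0.56 to 0.68 and Krt7 at 0.23 to 0.29. Values turned sign for Krt17 against siScramble with the slide as a term (-0.01), and for Foxe1 in siScramble vs wt (-0.06 as reported) without a dye term and with 1 shared dye term, both 0.01. Over all probes, calls against siScramble numbered 22, with 0 on processed signals or with a robust trend, 14 with an offset of 10, 37 with the replicate block or on the first slide alone, 65 with the slide as a term, 96 with a shared dye term, 524 on individual arrays alone, 691 without a dye term and 12 to 35 leaving out 1 replicate. Against wt there were 9, with 0 on processed signals or with a robust trend, 120 with all 10 arrays, 603 with the replicate block, 1652 with a shared dye term, 225 on individual arrays, 849 without a dye term and 0 to 65 leaving out 1 replicate. In siScramble vs wt, 3 probes passed with the block against 1 without it, and the block changed no other call on the members. Without a filter, Krt8, Krt18 and Krt19 had limma adjusted p values of 0.912, 0.812 and 0.516 against siScramble and 0.631, 0.947 and 0.835 against wt. Averaging a gene's probes gave the anchors a median of 0.15 against wt in place of 0.22. Separate dye terms in the fits of all 10 arrays were preferred to a shared one after the results of both had been seen. The low signal of Krt20 limits how well its fold change is known, and the cause of these shifts was not tested.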
